A study of Homo sapiens with 23 samples.

Results

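Peak lists of 2 acetylation marks of the histone H4 tail were compared in NCI-H23, an established human non-small cell lung cancer cell line. H4K5acK8ac is the tail acetylated at both lysine 5 and lysine 8, and H4K8ac is the tail acetylated at lysine 8. The members are the 4 libraries labelled with these marks, 2 replicates each, out of 23 samples in the series, of which 22 had a peak list. All 22 lists came from chromatin immunoprecipitation with sequencing (ChIP-seq) of this line. The other 18 lists, from 9 targets with 2 libraries each, served only to describe what lies at the peaks. They were H3K4me3, H3K4me1, H3K27ac, H3K36me3, H3K9me3, H3K27me3, H4K5ac, H4K12ac and BRD2. The labels' treatment text names 500 nM of the BET inhibitor JQ1, or its solvent DMSO, for 24 hours, but ties neither to a library, so the treatment of the 4 libraries is unknown and no treatment comparison was made. The labels do not say that replicates are separate cultures, so the spread between them may be technical. H4K5acK8ac was precipitated with a self-produced mouse monoclonal antibody and H4K8ac with a commercial rabbit polyclonal one, so mark and antibody cannot be told apart in any difference given here.

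The N-terminal tail of histone H4 carries several lysines that acetyltransferases modify and deacetylases restore, and its acetylation is found at promoters and enhancers in use. Bromodomains bind acetylated lysine, and the first bromodomain of BET proteins such as BRD2 can take up a pair of acetylated lysines on the same tail. A nucleosome with both lysines acetylated also carries acetylated lysine 8, although an antibody to the single mark need not bind the doubly modified tail equally well. H3K4me3 marks promoters, H3K4me1 with H3K27ac marks active enhancers, H3K36me3 lies over transcribed gene bodies, and H3K9me3 and H3K27me3 are repressive.

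The 4 lists differed in length, and the H4K8ac lists differed most. H4K5acK8ac replicate 1 had 75854 peaks covering 64.3 Mb and replicate 2 had 71837 peaks covering 71.7 Mb. H4K8ac replicate 1 had 224726 peaks covering 95.7 Mb and replicate 2 had 116852 peaks covering 39.6 Mb. The H4K5acK8ac lists were thus shorter but made of wider peaks, with a median width of 470 and 582 bp against 316 and 267 bp. Peaks of at least 2000 bp made up 9.16% and 12.2% of the H4K5acK8ac lists and 0.698% and 0.179% of the H4K8ac lists. The H4K8ac lists consisted mostly of weak peaks: a −log10 q of at least 5, called strong here, was reached by 16.6% of the peaks of replicate 1 and 5.85% of those of replicate 2, against 50.3% and 57.3% for H4K5acK8ac. In H4K8ac replicate 2, 23.4% of the peaks had a q above 0.05. The q of a peak is the authors' value and depends on read depth, which is unknown for all 4 libraries. The 2 H4K5acK8ac lists overlapped well, with a Jaccard index (bases covered by both lists over bases covered by either) of 0.646. The 2 H4K8ac lists gave 0.188, and between the marks the index lay between 0.210 and 0.267. Unequal covered lengths limit this index, and shares of peaks gave another order for H4K8ac replicate 2. Of its peaks, 56.7% overlapped H4K8ac replicate 1, against 39.0% and 41.7% for the H4K5acK8ac lists. Of the peaks of H4K8ac replicate 1, 26.9% overlapped replicate 2, against 27.2% and 29.2% for the H4K5acK8ac lists.

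A peak was called shared when at least 1 bp of it lay in a peak of the other mark, and separate otherwise, and this was done for each of the 4 pairs of libraries. Of the peaks of H4K5acK8ac replicate 1, 60.3% were shared with H4K8ac replicate 1 and 41.4% with H4K8ac replicate 2. Of those of H4K5acK8ac replicate 2, 64.1% and 44.5% were shared. The mean was 52.6% ± 2.42 (SD between the H4K5acK8ac libraries, n = 2) and ± 13.6 (SD between the H4K8ac libraries, n = 2). The choice of H4K8ac library therefore moved this share more than the choice of H4K5acK8ac library. In the other direction, 27.2% of the peaks of H4K8ac replicate 1 were shared with H4K5acK8ac replicate 1 and 29.2% with replicate 2. For H4K8ac replicate 2 the shares were 39.0% and 41.7%. Their mean was 34.3% ± 1.64 (SD between the H4K5acK8ac libraries, n = 2) and ± 8.60 (SD between the H4K8ac libraries, n = 2). The shorter H4K8ac list thus had the larger share of its peaks in H4K5acK8ac and took up the smaller share of H4K5acK8ac peaks. Wilson 95% intervals of these 8 shares reached at most 0.363 percentage points to either side, which covers counting error only and treats peaks as independent. With 2 libraries against 2 the smallest two-sided exact p is 0.333, so no comparison here carries a test, and differences are read against the spread between libraries. Among strong peaks alone the balance turned: 30.0% of strong H4K5acK8ac peaks overlapped a strong H4K8ac peak, while 78.0% of strong H4K8ac peaks overlapped a strong H4K5acK8ac peak. These are means over the 4 pairs. The cut left 38186 and 41164 H4K5acK8ac peaks but 37399 and 6838 H4K8ac peaks, which limits how many could overlap. When at least 50% of a peak had to be covered, 31.0% of H4K5acK8ac peaks were shared.

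Equal numbers of the strongest peaks, ranked by −log10 q, remove the difference in list length. When 10000 peaks were taken per list, the share found in the other mark's list, averaged over both directions, was 65.3% over the 4 pairs, with a range of 56.4% to 73.0%. The replicates of H4K5acK8ac shared 86.9% and those of H4K8ac 48.9% on the same scale. The mean between the marks lay above the H4K8ac replicates and below the H4K5acK8ac replicates at each of the 7 numbers of peaks taken, from 1000 (51.0% against 35.5% and 75.6%) to 70000 (44.7% against 41.5% and 73.0%). The pairs with H4K8ac replicate 1 were above those with replicate 2 at each of these numbers. At 70000 the lowest pair gave 41.1%, just under the H4K8ac replicates. Equal numbers do not remove the difference in peak width, and the directions differed. At 10000, 66.8% and 66.5% of H4K5acK8ac peaks were in H4K8ac replicate 1, and 48.8% and 50.5% in replicate 2. The H4K8ac replicates gave 45.9% and 52.0%, so the pairs with replicate 2 did not exceed both. Of H4K8ac peaks, 63.95% to 79.6% were in H4K5acK8ac. At 70000, 34.4% to 42.5% of H4K5acK8ac peaks were in H4K8ac, against 38.45% and 44.6% between its replicates.

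**Figure D1:**
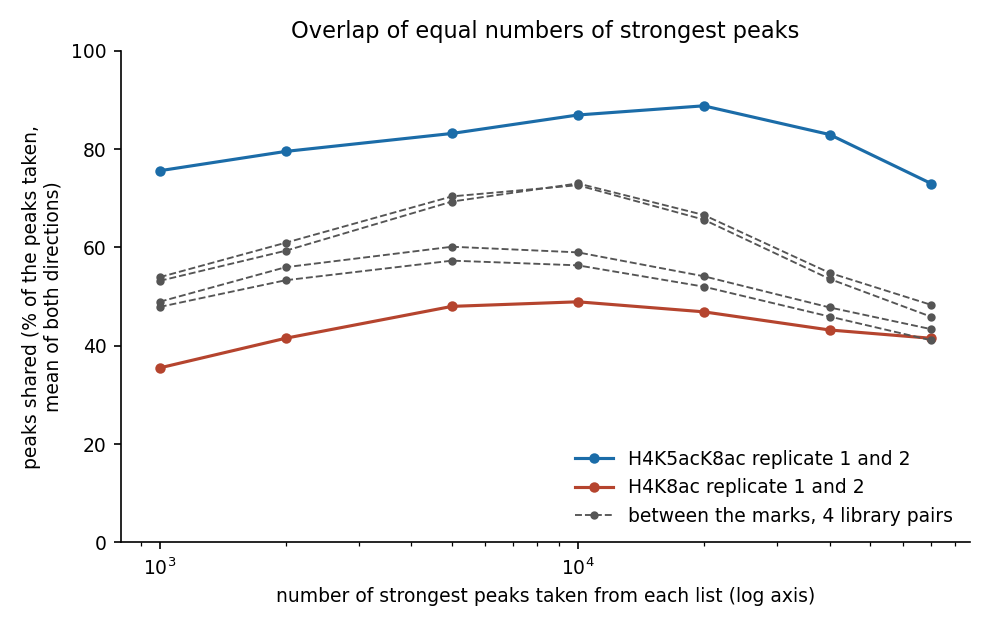
Share of the strongest peaks of 1 list that overlap the equally many strongest peaks of another, averaged over both directions (y axis, %), against the number of peaks taken (x axis, log scale). The 4 dashed lines between the marks lie between the H4K5acK8ac replicates (86.9% at 10000 peaks) and the H4K8ac replicates (48.9%), except for 1 pair at 70000 peaks.

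Few of the strongest peaks of either mark were absent from both full lists of the other mark, with the most (7.35% of 10000) in H4K8ac replicate 2. Of the 1000 strongest H4K5acK8ac peaks, 0 in replicate 1 and 0 in replicate 2 lay outside both H4K8ac lists. Of the 10000 strongest, 20 in replicate 1 and 12 in replicate 2 did, against 33.7% and 30.0% of all peaks of these lists. Of the 10000 strongest H4K8ac peaks, 113 in replicate 1 and 735 in replicate 2 lay outside both H4K5acK8ac lists. Of all H4K8ac peaks, 67.8% and 55.2% lay outside both. The 10000th peak had a −log10 q of 45.0 and 66.2 in the H4K5acK8ac lists but of 10.9 and 4.25 in the H4K8ac lists, so the same rank reaches lower q-based strengths in H4K8ac.

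Strong peaks were shared more often than weak ones in all 4 pairs. From bin to bin of −log10 q the share went up, except for H4K5acK8ac replicate 1 with H4K8ac 2 (24.2% under 1.3, 22.1% at 1.3 to 2) and for H4K8ac replicate 2 with H4K5acK8ac 2 (99.4% at 10 to 20, 98.5% at 20 and above). Of H4K5acK8ac peaks with a −log10 q under 1.3 (a q above 0.05), 40.5% and 41.3% were shared with H4K8ac replicate 1 and 24.2% and 20.9% with replicate 2. At a −log10 q of at least 20 these shares were 95.9% and 94.1%, and 78.2% and 75.6%. For H4K8ac, between 11.7% and 24.9% of the peaks under 1.3 were shared, and between 98.5% and 100% of those of at least 20. At 5 to 10 the H4K8ac libraries were far apart, with 58.2% and 62.1% of the peaks of replicate 1 shared and 94.2% and 95.1% of those of replicate 2. A given q therefore did not stand for the same peaks in both H4K8ac libraries.

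**Figure D2:**
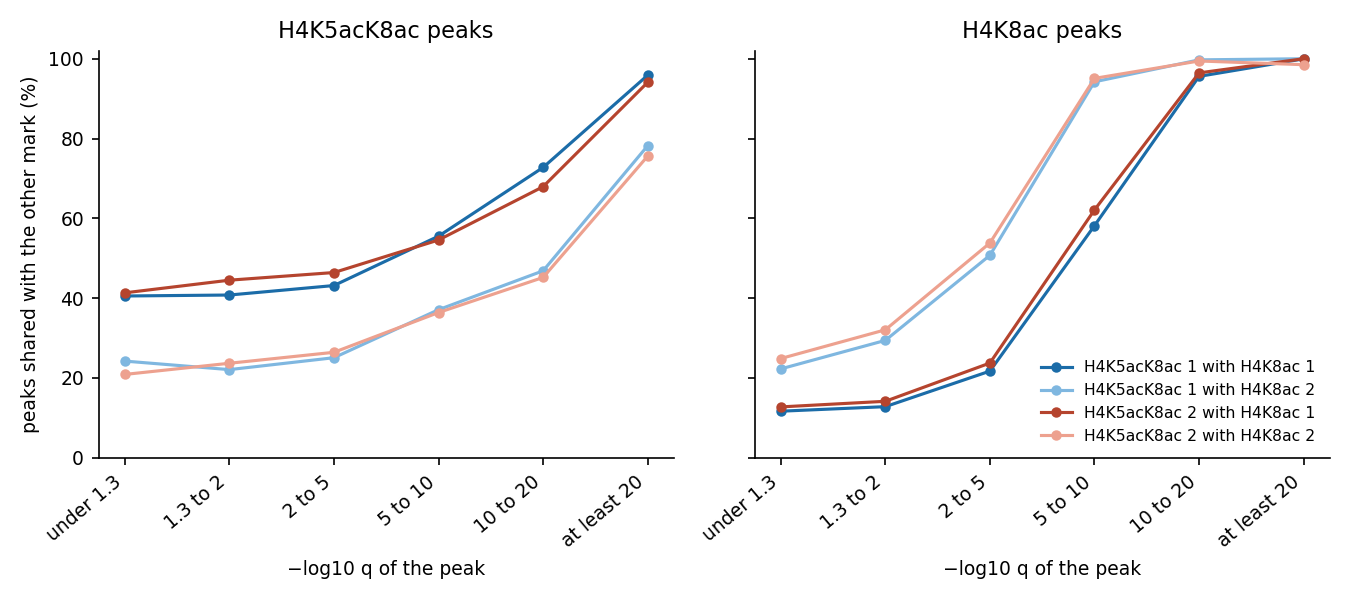
Share of peaks shared with the other mark (y axis, %) by the −log10 q of the peak (x axis, bins), for H4K5acK8ac peaks on the left and H4K8ac peaks on the right. Each line is 1 of the 4 library pairs; H4K8ac peaks above 10 were nearly all shared, while among H4K5acK8ac peaks of at least 20 between 75.6% and 95.9% were.

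Shared peaks were wider than separate ones in both marks. Shared H4K5acK8ac peaks had a median width of 747, 933, 882 and 1117 bp in the 4 pairs (replicate 1 with H4K8ac 1 and 2, then replicate 2 with H4K8ac 1 and 2), and separate ones 314, 349, 369 and 414 bp. The ratio lay between 2.38 and 2.70, with a mean of 2.54 ± 0.213 (SD between the H4K8ac libraries, n = 2). Shared H4K8ac peaks had median widths between 334 and 466 bp and separate ones between 243 and 288 bp, a mean ratio of 1.50 ± 0.162 (SD between the H4K8ac libraries, n = 2). Shared peaks were also the stronger ones: the median fold enrichment of shared H4K5acK8ac peaks was 1.74 to 2.10 times that of separate ones, and that of shared H4K8ac peaks 1.13 to 1.23 times. Within bins of −log10 q the width ratio of H4K5acK8ac was 1.32, with values near 1 for the weakest peaks (1.04) and 1.69 for those of at least 20. With the 10000 strongest peaks it was 1.19, and with at least 50% of the peak covered 1.42. Among H4K5acK8ac peaks under 500 bp, 32.8% were shared on average, against 54.5% of those of 500 to 1000 bp, 79.1% of those of 1000 to 2000 bp and 94.3% of those of at least 2000 bp.

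A single broad H4K5acK8ac peak often held several H4K8ac peaks. Between 25.7% and 30.8% of shared H4K5acK8ac peaks, depending on the pair, contained at least 2 H4K8ac peaks, and the most in 1 peak was 59. Shared bases made up 50.7% and 49.1% of the H4K5acK8ac bases with H4K8ac replicate 1, and 28.1% and 26.96% with replicate 2. They made up 34.1% and 36.8% of the bases of H4K8ac replicate 1 and 45.6% and 48.9% of those of replicate 2. These shares are over all peaks of a list, separate ones included. When at least 50% of an H4K8ac peak had to be covered, 31.1% of H4K8ac peaks were shared, against 34.3% at 1 bp, while the same step took H4K5acK8ac from 52.6% to 31.0%.

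The summits, the highest points of the peaks, lay close together at shared peaks. The median distance from an H4K5acK8ac summit to the nearest H4K8ac summit among the overlapping peaks was 99 and 96 bp with H4K8ac replicate 1 and 115 and 116 bp with replicate 2. The mean of the 4 was 107 bp ± 0.707 (SD between the H4K5acK8ac libraries, n = 2) and ± 12.7 (SD between the H4K8ac libraries, n = 2). The same distance between replicates of a single mark was 97 bp from H4K5acK8ac replicate 1 to replicate 2 (79 bp the other way) and 119 bp for H4K8ac (135 bp the other way). The distances between the marks were thus within the range set by the replicates. Only summits of overlapping peaks enter and the nearest is taken, so this rule and the peak widths bear on all these distances. Within 100 bp lay 45.2% to 51.4% of the shared summits, and 6.49% to 8.10% lay more than 500 bp apart. At peaks carrying H3K4me3 the mean of the medians was 86.0 bp (68 to 103 over the pairs), and at peaks with H3K4me1 and H3K27ac but no H3K4me3 it was 123 bp (112 to 130). Stricter selections shortened the distance, to 86.3 bp for strong peaks, 76.0 bp for the 10000 strongest and 88.8 bp with at least 50% of the peak covered.

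**Figure D3:**
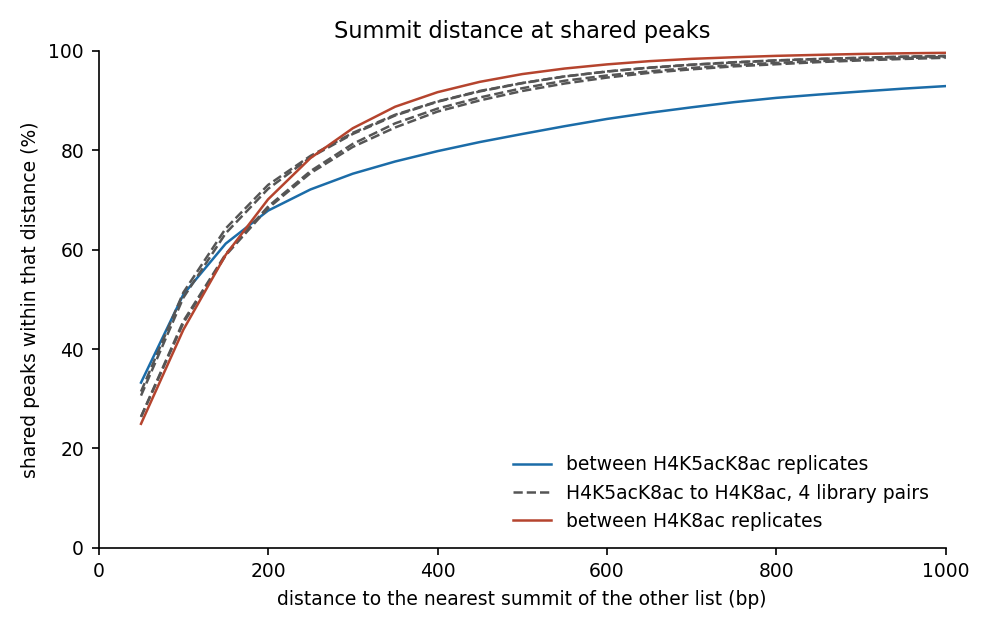
Cumulative share of shared peaks (y axis, %) whose summit lies within a given distance of the nearest summit of the other list (x axis, bp). The 4 dashed curves are the pairs of H4K5acK8ac with H4K8ac, which run close to the replicates of each mark up to about 200 bp; beyond that the H4K5acK8ac replicate curve is the lowest.

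Separate peaks of the marks also differed in how far they lay from the other mark. The median gap from a separate H4K5acK8ac peak to the nearest H4K8ac peak was 1344 and 1643 bp with H4K8ac replicate 1 and 2628 and 2996 bp with replicate 2. From a separate H4K8ac peak to the nearest H4K5acK8ac peak it was between 7499 and 9195 bp. Within 1000 bp of the other mark lay 27.8% to 43.3% of separate H4K5acK8ac peaks and 10.9% to 14.0% of separate H4K8ac peaks. A longer list leaves smaller gaps, and H4K8ac replicate 1 had the most peaks.

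The chromatin context of a peak was read as the share of peaks overlapping a peak of the context mark, averaged over its 2 lists. H4K8ac peaks fell into sharply different contexts by whether H4K5acK8ac was there. H3K4me3 was found at 40.6% of shared and 0.714% of separate H4K8ac peaks, and the difference in the 4 pairs was 42.3, 39.2, 40.6 and 37.5 percentage points (mean 39.9 ± 2.16, SD between the H4K8ac libraries, n = 2). H3K27ac was at 80.4% of shared and 12.9% of separate H4K8ac peaks, and H3K4me1 at 71.7% and 17.3%. The other acetylated lysines of the H4 tail followed the same split, with H4K5ac at 89.6% and 16.2% and H4K12ac at 71.6% and 10.4%. BRD2 was at 33.3% and 1.87%. For each of these 6 targets the difference was positive in all 4 pairs and larger than the SD between the libraries of either mark. When each list was limited to its 10000 strongest peaks, the differences were 50.3 percentage points for H3K4me3 and 56.4 for BRD2, but 8.74 for H3K4me1, 11.7 for H4K5ac, 22.5 for H4K12ac and 26.7 for H3K27ac. Separate there meant outside the 10000 strongest H4K5acK8ac peaks, and 90.2% to 98.6% of these H4K8ac peaks overlapped a full H4K5acK8ac list.

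H4K5acK8ac peaks showed a weaker split, since their separate peaks were also often in active chromatin. H3K4me3 was found at 39.6% of shared and 24.2% of separate H4K5acK8ac peaks. The difference was 20.6 and 12.9 percentage points for replicate 1 with H4K8ac 1 and 2, and 17.2 and 10.9 for replicate 2 (mean 15.4 ± 4.97, SD between the H4K8ac libraries, n = 2). H3K4me1 was at 78.4% and 60.8%, a difference of 17.6 percentage points. At the summit base it was at 57.1% and 50.1%, a difference of 7.02 (1.95 to 11.7 over the pairs, SD 6.14 between the H4K8ac libraries). H3K27ac was at 77.3% and 64.0%. H4K5ac was at 87.7% and 55.6%. The widest gaps were for H4K12ac, at 70.9% of shared and 20.3% to 33.7% of separate peaks, and for BRD2 in relative terms, at 36.9% and 7.14%. These differences were positive in all 4 pairs. Among the 10000 strongest peaks of each list H4K12ac differed by 0.351 percentage points, H4K5ac by 0.00620, H3K27ac by 0.383 and H3K4me3 by 0.0411. H3K4me1 differed by 4.94 and BRD2 by 8.30. Separate there meant outside the 10000 strongest H4K8ac peaks. Of these H4K5acK8ac peaks 90.5% to 99.7% overlapped a full H4K8ac list, so this cut does not compare peaks with and without H4K8ac. With sharing read from the full lists, peaks with a −log10 q of at least 20 differed by 15.9 percentage points for H4K12ac and 30.2 for BRD2. With at least 50% of the peak covered, H3K4me3 differed by 0.956, H3K27ac by 0.959, H3K4me1 by 7.10, H4K5ac by 18.9, H4K12ac by 25.5 and BRD2 by 15.6.

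**Figure D4:**
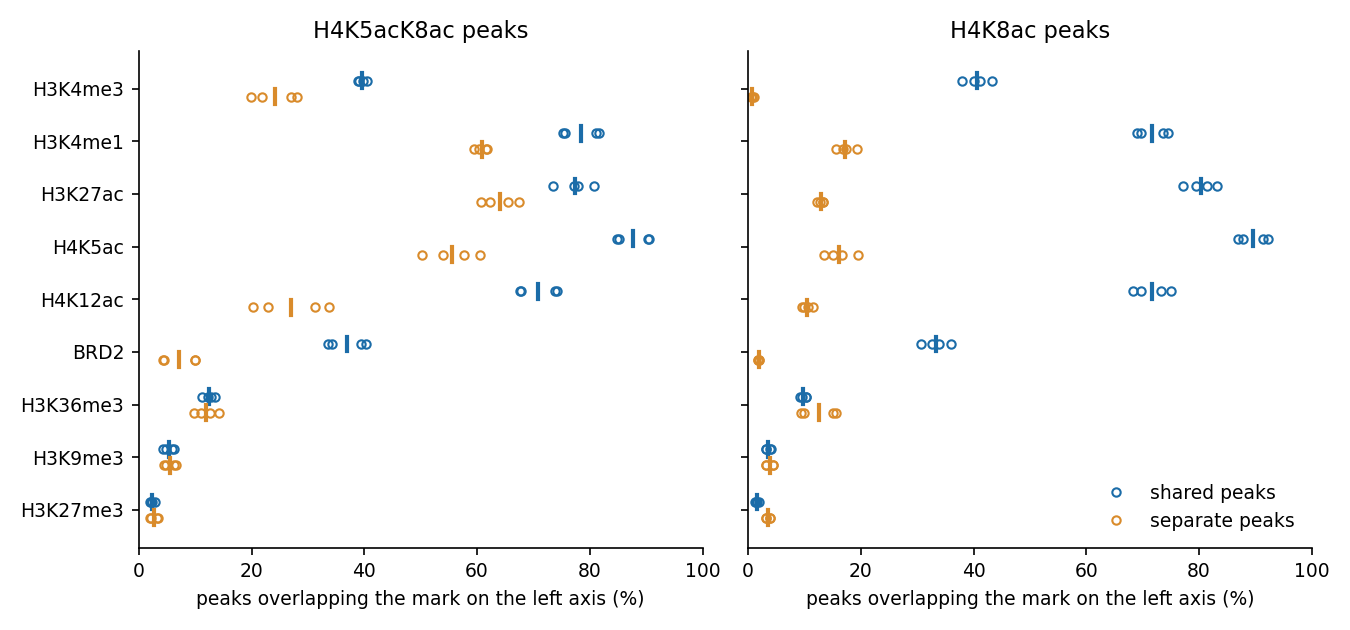
Share of H4K5acK8ac peaks (left) and H4K8ac peaks (right) that overlap a peak of each context target (x axis, %), for shared and separate peaks. Open circles are the 4 library pairs and bars their mean; separate H4K8ac peaks carried H3K4me3 at 0.714%, separate H4K5acK8ac peaks at 24.2%.

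H3K36me3 and the repressive marks were rarer and divided the peaks less. H3K36me3 was at 12.4% of shared and 11.9% of separate H4K5acK8ac peaks, and the sign of the difference varied with the pair, from −1.99 to 2.92 percentage points. Counted at the summit base of the peak, which takes no account of its width, H3K36me3 was at 5.76% of shared and 9.76% of separate H4K5acK8ac peaks, lower at shared peaks in all 4 pairs. At H4K8ac peaks it was at 9.82% of shared and 12.5% of separate peaks, with −4.77 and −6.53 percentage points for H4K8ac replicate 1 and 0.825 and −0.374 for replicate 2, so the overlap difference was clear in 1 of the 2 H4K8ac libraries. At the summit base H3K36me3 was lower at shared H4K8ac peaks in all 4 pairs, with −6.12 and −7.65 percentage points for replicate 1 and −0.440 and −1.48 for replicate 2. H3K9me3 was at 5.28% of shared and 5.49% of separate H4K5acK8ac peaks and at 3.57% and 3.80% of H4K8ac peaks. These differences changed sign between pairs. H3K27me3 was at 2.33% and 2.62% of H4K5acK8ac peaks, also with both signs, and at 1.54% and 3.49% of H4K8ac peaks, where all 4 pairs were lower at shared peaks by 1.13 to 2.60 percentage points. At the summit base H3K9me3 and H3K27me3 were lower at shared than at separate peaks of both marks in all 4 pairs, by at most 3.16 percentage points.

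When peaks of similar strength were compared, the H3K4me3 difference of H4K5acK8ac turned over below a −log10 q of 20. In each of the 5 bins of −log10 q under 20, H3K4me3 was less frequent at shared than at separate H4K5acK8ac peaks in all 4 pairs. The mean difference was −6.53 percentage points under 1.3, −9.23 at 2 to 5 and −20.7 at 10 to 20. At 10 to 20 H3K4me3 lay on 42.2% of shared and 45.0% of separate peaks of replicate 1 paired with H4K8ac 1, and on 27.1% and 56.9% with H4K8ac 2. For replicate 2 these shares were 29.7% and 45.3%, and 15.7% and 50.3%. At 20 and above the pairs with H4K8ac replicate 1 gave 25.2 and 9.81 percentage points and those with replicate 2 gave −7.20 and −11.1. Weighted by the number of peaks per bin, the difference was −7.68 percentage points, against 15.4 over all peaks, and 1 of the 4 pairs was positive (1.21). The SD of this weighted difference between the H4K8ac libraries was 8.33 (n = 2), so its size lies within that spread. Counted at the summit base, the 5 bins under 20 were also negative in all 4 pairs. Strength and sharing go together, as do strength and H3K4me3, and the difference over all peaks contains both.

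H3K27ac turned as well, and the other targets did so less or not at all. H3K27ac was less frequent at shared H4K5acK8ac peaks in each bin under 10, by 4.57 to 6.13 percentage points on average, and its weighted difference was −2.79 (negative in all 4 pairs, −3.57 to −2.18) against 13.3 over all peaks. Within the same bins H3K4me1 was more frequent at shared H4K5acK8ac peaks from 5 upward in all 4 pairs, with a mean of 8.69 percentage points at 5 to 10 and 19.0 at 20 and above, while under 5 the pairs had both signs. At the summit base this held at 5 to 20, but at 20 and above the 4 pairs gave −2.27, 27.1, 5.17 and 26.4. H4K12ac was more frequent at shared peaks in every bin and pair, by 14.3 percentage points on average under 1.3 and by 23.3 to 31.4 at 5 to 10. H4K5ac was likewise more frequent in every bin and pair. The BRD2 difference was 30.2 percentage points on average at 20 and above, and 2.78 or less in the bins under 20. For H4K8ac the H3K4me3 difference was positive wherever it could be computed. It was 26.9 percentage points under 1.3 and 51.3 at 5 to 10 over the 4 pairs, and 69.6 and 68.2 at 10 to 20 in the 2 pairs with H4K8ac replicate 1. Under 20 separate H4K8ac peaks were left at 10 to 20 in the pairs with replicate 2, and at 20 and above in all pairs, so these give no value. Weighted, the difference was 33.8.

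**Figure D5:**
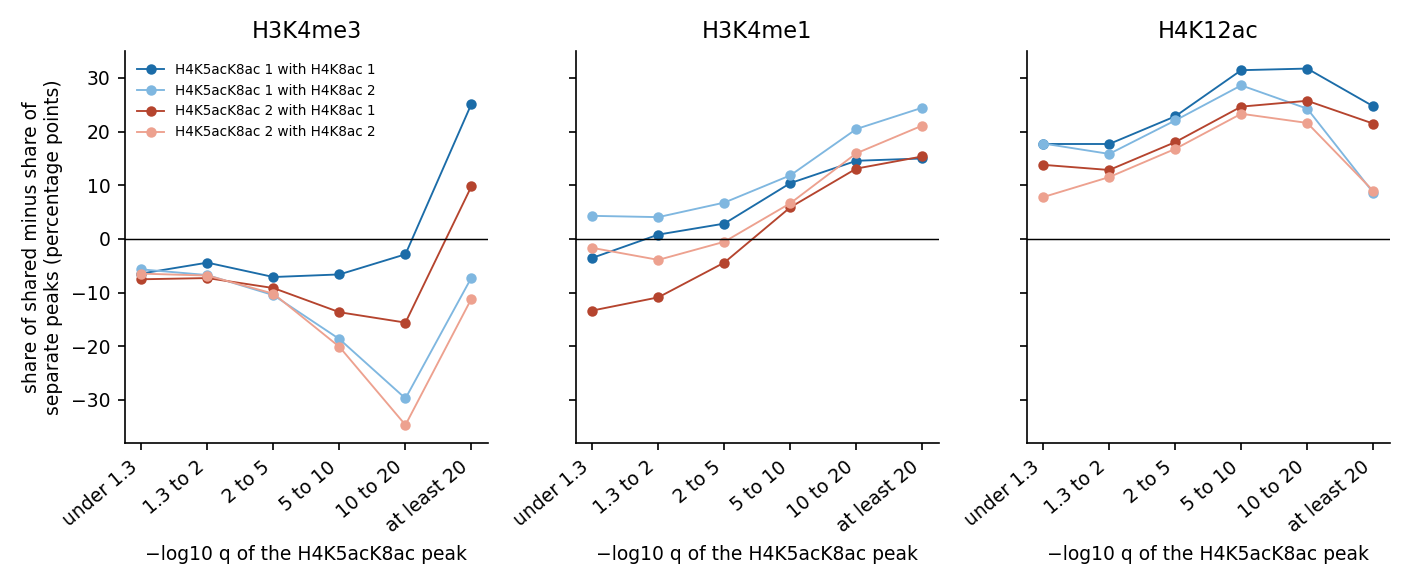
Share of shared minus share of separate H4K5acK8ac peaks that overlap H3K4me3, H3K4me1 or H4K12ac (y axis, percentage points) by the −log10 q of the H4K5acK8ac peak (x axis, bins); each line is 1 of the 4 library pairs. H3K4me3 is below 0 in every bin under 20, H3K4me1 is above 0 from 5 upward, and H4K12ac is above 0 throughout.

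Each peak was also placed in a single class by the marks found in both lists of a target. H4K8ac peaks with H3K4me3, called promoter-like, were shared in 94.5%, 97.3%, 96.5% and 98.5% of cases in the 4 pairs, although they made up only 12.2% and 15.7% of the 2 H4K8ac lists. Of active enhancer-like H4K8ac peaks, those with H3K4me1 and H3K27ac but no H3K4me3, 80.0% were shared on average (74.7% to 85.8%). H4K8ac peaks with H3K36me3 and no promoter or enhancer mark were shared in 1.77% of cases (0.611% to 3.04%), and those with a repressive mark alone in 6.80% (4.59% to 8.78%). Promoter-like H4K5acK8ac peaks were shared in 75.8% and 76.4% of cases with H4K8ac replicate 1 but in 51.1% and 52.8% with replicate 2. H4K5acK8ac was thus present at nearly all H4K8ac promoter peaks, while the share of H4K5acK8ac promoter peaks with H4K8ac depended on the H4K8ac library. Of separate H4K8ac peaks, 76.0% had none of the marks that define these classes, and 41.6% met no peak in any of the 18 context lists, against 1.26% of shared ones. For H4K5acK8ac these last shares were 6.04% of separate and 1.67% of shared peaks.

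Separate peaks were also found again less often in the second library of their own mark. Of the peaks of H4K5acK8ac replicate 1 that met both H4K8ac lists, 92.6% were also in H4K5acK8ac replicate 2, against 54.5% of those that met neither. For replicate 2 these shares were 86.7% and 51.4%. For H4K8ac they were 57.8% and 14.9% in replicate 1, and 85.5% and 36.8% in replicate 2. The gap was smaller among strong H4K5acK8ac peaks, where 99.3% and 86.9% of those of replicate 1 and 96.6% and 78.2% of those of replicate 2 were found again. Among H4K5acK8ac peaks with a −log10 q under 1.3 the shares were 54.5% and 28.0% in replicate 1, but 28.4% and 26.7% in replicate 2. Shared peaks were also the stronger ones, so the gap over all peaks contains strength as well. Among strong peaks of H4K8ac replicate 1 the shares were 74.2% and 33.6%, and of replicate 2 98.1% and 65.8%. Separate H4K8ac peaks thus rested on a single library more often than separate H4K5acK8ac peaks did, in lists whose lengths differ.

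The strength of the marks went together at shared peaks. The Spearman correlation of −log10 q across shared H4K5acK8ac peaks with the overlapping H4K8ac peak was 0.593 and 0.596 with H4K8ac replicate 1 and 0.508 and 0.529 with replicate 2. It was 0.737 between the H4K5acK8ac lists and 0.401 between the H4K8ac lists. These describe 31438 to 60400 peaks, which are not independent, and peak width bears on both values.

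Merging overlapping peaks of the 4 lists gave 276736 regions, of which 192570 were called in a single list. All 4 lists had a peak in 23838 regions, called shared regions. These were 51.7% of the 46091 regions with both H4K5acK8ac lists and 47.1% of the 50627 regions with both H4K8ac lists. Another 9114 regions (19.8% of the former) had both H4K5acK8ac lists and neither H4K8ac list, and 21273 (42.0% of the latter) had both H4K8ac lists and neither H4K5acK8ac list. The latter regions were weak: in 29 of the 21273 (0.136%) both H4K8ac lists reached a −log10 q of 5 and in 0 both reached 20. In shared regions both H4K8ac lists reached 5 in 4892 of 23838. The whole list of H4K8ac replicate 2 held 6838 strong peaks, and 67 of at least 20. Among the H4K5acK8ac-only regions 3180 (34.9%) were strong in both H4K5acK8ac lists and 248 reached 20, against 79.3% strong in both among shared regions. Strong peaks made up 50.3% and 57.3% of the H4K5acK8ac lists, so these counts also carry the difference in q between the marks' lists. When the regions were built from strong peaks alone the order turned, with 12672 H4K5acK8ac-only, 4806 shared and 83 H4K8ac-only regions. The 6838 strong peaks of H4K8ac replicate 2 limit both classes that need it. Shared regions had a median width of 1756 bp, H4K5acK8ac-only regions 596 bp and H4K8ac-only regions 466 bp. Leaving out 1 library leaves a mark with a single list, and the classes then grew: without H4K8ac replicate 2 there were 152371 H4K8ac-only regions and without replicate 1 there were 64451, while H4K5acK8ac-only regions numbered 20331 without H4K8ac replicate 1, 21535 without H4K5acK8ac replicate 1 and 25573 without H4K5acK8ac replicate 2.

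The 3 classes of region also differed in context. H3K4me3 was at 49.5% ± 0.231 (SD between the 2 H3K4me3 lists, n = 2) of shared, 32.6% ± 0.419 of H4K5acK8ac-only and 0.353% ± 0.0199 of H4K8ac-only regions. H4K12ac was at 86.8% ± 2.29, 28.2% ± 1.21 and 18.1% ± 2.65, and BRD2 at 51.4% ± 8.50, 7.25% ± 4.55 and 3.21% ± 1.53. H3K27ac was at 86.6% ± 2.61, 78.4% ± 9.45 and 14.6% ± 3.93. H4K5ac was at 97.3%, 66.8% and 27.1%, and H3K4me1 at 88.9%, 68.4% and 19.1%. H4K5acK8ac-only regions thus stood nearer to shared regions in H3K4me3, H3K27ac, H4K5ac and H3K4me1, and nearer to H4K8ac-only regions in H4K12ac and BRD2. Shared regions were also wider, with a median of 1756 against 596 bp for H4K5acK8ac-only regions. Their median −log10 q in H4K5acK8ac replicate 1 was 25.8 against 4.40, and width bears on a 1 bp overlap. The strong H4K5acK8ac-only regions carried H3K4me3 at 50.7%, H3K27ac at 88.6%, H4K12ac at 45.0% and BRD2 at 15.1%, while strong shared regions had 61.1%, 93.8%, 94.5% and 63.2%. The H4K8ac-only regions strong in both H4K8ac lists, only 29, had 0%, 27.6%, 56.9% and 15.5%. In H4K12ac and BRD2 they thus did not lie below the strong H4K5acK8ac-only regions. No context peak at all was found at 0.0797% of shared, 0.998% of H4K5acK8ac-only and 29.0% of H4K8ac-only regions.

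In each class the 5 regions with the highest −log10 q in their weakest list are named. Coordinates are those of the lists, hg19 and counted from 1. The gene annotation given is of another build, so these regions carry no gene names here. The first shared region lies on chromosome 1 from 115123528 to 115126036. Its fold enrichment was 64.4 and 48.7 in the H4K5acK8ac lists and 12.1 and 12.4 in the H4K8ac lists, and it held 1 H4K5acK8ac peak per list but 3 and 2 H4K8ac peaks. The second, on chromosome 1 from 153535838 to 153542656, had 70.7 and 48.4 against 13.7 and 10.6, and also carried H3K36me3 in both lists. The third lies on chromosome 20 from 57266482 to 57269490, the fourth on chromosome 1 from 36551413 to 36555631 and the fifth on chromosome 1 from 158117970 to 158120796. All 5 overlapped H3K4me3, H3K4me1, H3K27ac, H4K5ac, H4K12ac and BRD2 peaks in both lists of each, and the fifth also H3K9me3 and H3K27me3 in both. Folds are each relative to the peak caller's background in that library and are not comparable as levels between marks.

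The 5 leading H4K5acK8ac-only regions were high in both H4K5acK8ac lists. The first lies on chromosome 3 from 169939388 to 169940554, with a fold enrichment of 28.4 and 28.9. The second, on chromosome 6 from 160113610 to 160115146, had 24.0 and 21.7. The others lie on chromosome 19 from 38893695 to 38895084, on chromosome 10 from 69868387 to 69870247 and on chromosome 1 from 147752098 to 147753126, with folds between 14.3 and 20.7. All 5 overlapped H3K4me3, H3K27ac, H4K5ac and H4K12ac peaks in both lists of each, and the first and the fifth had no H3K4me1 peak. Of the 5 leading H4K8ac-only regions, the first, on chromosome 2 from 133029614 to 133030047, had a fold of 2.15 and 2.41, and the second, on chromosome 19 from 1608452 to 1609184, 5.91 and 5.85. The others lie on chromosome 12 from 1627298 to 1629163, on chromosome 1 from 36570498 to 36571602 and on chromosome 9 from 38164106 to 38164865. None of these 5 overlapped an H3K4me3, H3K36me3 or H3K9me3 peak. The first and the second had peaks in 10 of the 22 lists, their own 2 H4K8ac lists included.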

How the data were processed

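ChIP-seq peaks were available as 1 list per library, with replicates not pooled, in the 10-column narrowPeak layout without a header. The submitters' processing notes name BWA, MACS2 and the build hg19; versions, settings and the control used for each list are not given in the sources used here. Enrichment is deposited as a fold over the peak caller's background, a ratio without unit, and significance as the authors' −log10 p and −log10 q. The last deposited column is the summit's offset from the peak start. The lowest −log10 p of the 4 lists was between 2.00 and 2.01, so weak peaks are present. They served to describe and rank peaks of 1 list and to set limits on it. The number of reads behind a list is unknown, so lengths and q values of different lists are not on 1 scale.

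Groups and replicates follow the sample titles. All 4 library pairs were compared in Python 3.11.15 with pandas 2.3.3, numpy 2.4.6 and scipy 1.17.1, with plots by matplotlib 3.10.9; context shares are means over the 2 lists of a target. In the single classes a mark counts where both of its lists have a peak. Bins with under 20 shared or separate peaks give no value. The functions were tested on simulated lists. The libraries, marks and settings were chosen with earlier results of these data known. The regions named are, in each class, the 5 with the largest lowest −log10 q over the lists of the class, chromosome 8 left out. Alternatives were stricter q limits, the 10000 strongest peaks, at least 50% coverage, same-numbered pairs and leaving out each library. Summit positions, comparison within bins of −log10 q, crossed numbers and the alternatives for region counts were added after the data had been seen. Distances to transcription starts, gene names and sequences were not analysed here, as the annotation given is of GRCh38.p14.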

Additional observations from a re-analysis of the deposited data

How the results depend on the processing

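Of 190 values under alternatives other than leaving out a library, 112 moved by less than the larger SD between replicate libraries (counts: less than 1.5 times), 70 moved by more than that, up or down, without changing sign, and 8 changed sign. The cause of these moves was not tested. With strong peaks only, the H4K5acK8ac share shared was 30.0%, the H4K8ac share 78.0%, the H4K5acK8ac width ratio 2.25, the summit distance 86.3 bp, and the H3K4me3 difference 24.3 percentage points for H4K5acK8ac and 62.7 for H4K8ac; H3K9me3 at H4K5acK8ac turned to 1.67. With the 10000 strongest peaks the H4K8ac share was 72.4%, the H4K5acK8ac width ratio 1.19, the distance 76.0 bp, and the H3K4me3 differences 0.0411 and 50.3; H3K9me3 at H4K5acK8ac turned to 2.58, and at H4K8ac H3K36me3 turned to 3.49 and H3K9me3 to 0.351. In that setting separate means outside the 10000 strongest peaks of the other mark's list. With at least 50% covered the H4K5acK8ac share was 31.0%, its width ratio 1.42, the distance 88.8 bp and the H3K4me3 differences 0.956 and 43.3; H3K36me3 at H4K5acK8ac turned to −1.34. With both sharing and context read at the summit the distance was 74.5 bp and H3K36me3 at H4K5acK8ac −4.12. Within bins of −log10 q the width ratios were 1.32 and 1.21, the H3K4me3 differences −7.68 and 33.8, and H3K27ac at H4K5acK8ac −2.79. Regions shared, H4K5acK8ac-only and H4K8ac-only numbered 3822, 1470 and 319 with the 10000 strongest peaks; with strong peaks they numbered 4806, 12672 and 83.

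Leaving out each library in turn gave 43.0% to 62.2% and 28.2% to 40.3% for the shares of H4K5acK8ac and H4K8ac, 2.38 to 2.69 and 1.38 to 1.61 for the width ratios, 97.5 to 116 bp for the distance, 11.9 to 18.9 and 38.4 to 41.4 percentage points for H3K4me3, and 25901 to 34764, 11403 to 25573 and 23329 to 152371 for the regions. Signs turned for H3K36me3 at H4K5acK8ac without H4K5acK8ac replicate 2 (−0.583) or H4K8ac replicate 2 (−0.955; highest 1.87), for H3K9me3 there without H4K8ac replicate 1 (1.47; lowest −1.87), for H3K27me3 there without H4K5acK8ac replicate 2 (0.0610; lowest −0.638), and at H4K8ac for H3K36me3 without H4K8ac replicate 1 (0.226; lowest −5.65) and H3K9me3 without H4K8ac replicate 2 (0.0198; lowest −0.474). As a replicate block, same-numbered pairs alone gave 52.4% and 34.4% for the shares, 107.5 bp for the distance and 15.8 percentage points for H3K4me3 at H4K5acK8ac, and changed no result by more than the spread between libraries. The deviations of same-numbered libraries did not go together, with r = −0.108 over 21353 bins of 100000 bp. Crossed numbers were also tried: a mean of 38751 H4K5acK8ac and 55565 H4K8ac peaks were then shared, against 38869 and 54913 with same numbers.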

Other observations

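Sharing also differed along the genome. Chromosome Y, with 46 regions, was left out. Among the regions called in both H4K5acK8ac lists, the share with all 4 lists was lowest on chromosome 4 (29.6%) and X (30.8%) and highest on chromosome 17 (65.7%) and 20 (68.2%). H4K8ac-only regions per 100 shared regions ranged from 26.3 on chromosome 19 to 149 on chromosome 2, with a median of 73.1 over 23 chromosomes, and chromosomes 7, 18 and 20 were also high, with 123, 119 and 116. H4K5acK8ac-only regions per 100 shared regions ranged from 14.5 on chromosome 20 to 127 on chromosome 4. Chromosomes 4 and X, which were rich in H4K5acK8ac-only regions, had 48.1 and 33.2 H4K8ac-only regions per 100 shared. In each of the 4 library pairs the share of H4K5acK8ac peaks that were shared was lowest on chromosome 4 and highest on chromosome 20, and the share of H4K8ac peaks that were shared was highest on chromosome 19. The Spearman correlation of the H4K5acK8ac share across the 23 chromosomes between the pairs of replicates 1 and of replicates 2, which have no library in common, was 0.883, and that of the H4K8ac share was 0.585. These describe whole chromosomes, which differ in length and number of regions, and carry no test.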
